A study of Mus musculus with 4 samples.

Results

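The genes described here encode the voltage-gated potassium, sodium and calcium channels and the other proteins that share their symbols. They were taken by symbol from the array platform's annotation: every symbol beginning with Kcn, with Scn, a number and a or b, or with Cacna, Cacnb or Cacng. This gave 119 genes, 84 potassium, 10 sodium and 25 calcium channel genes, of the 19087 genes that had a feature with 1 symbol. They were covered by 209 of the array's 45018 features, a feature being a spot that carries 1 probe. All 119 genes matched a RefSeq gene by gene ID.

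RNA of a Mll1-/- mouse embryonic fibroblast line was hybridised together with RNA of a wt (wild-type) fibroblast line on each of 4 Agilent 2-colour arrays. Arrays 1 and 3 had the Mll1-/- RNA in Cy5, and arrays 2 and 4 had it in Cy3. Such fibroblasts are cultured from the connective tissue of embryos. The gene Mll1 is listed as Kmt2a today, and its protein methylates a lysine of histone H3. The labels name 1 line of each genotype and no separate cultures, so genotype and line cannot be told apart. The p-values measure only the spread between arrays that is left once a dye difference is fitted. That spread may be technical. No treatment, age or strain is named.

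Each array gave 1 log ratio per feature, here taken as log2 of Mll1-/- over wt. That direction is likely and not certain: the array titles name the mutant first, and Kmt2a itself was lower this way, at -1.24 ± 0.42 (SD, n = 4; adjusted p = 0.0138, limma). Kmt2a is part of the basis for the direction, so it is no separate check of it. If the ratios ran the other way, every sign below would turn. Only ratios were used, so the level of a channel gene, its signal over background and the presence of fibroblast markers could not be assessed. Precision is limited by the small number of arrays. In RNA of a whole culture, fewer cells of a type and less RNA per cell cannot be told apart.

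Voltage-gated channels are membrane pores that open when the membrane potential changes and let potassium, sodium or calcium ions pass. Each is built around pore-forming alpha subunits, and auxiliary subunits alter its gating or its transport to the surface. Not all genes with these symbols fit the name voltage-gated: Kcnj genes encode inward rectifiers, Kcnk genes 2-pore-domain leak channels, and Kcnn and Kcnt genes channels opened by calcium or sodium ions. Pore genes of the voltage-gated families made up 52 of the 119 genes, and the other 67 were inward rectifiers, 2-pore-domain channels, ion-activated channels, auxiliary subunits and 3 noncoding RNAs. Fibroblasts are not electrically excitable in the manner of neurons or muscle, in which many of these genes are best known.

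Mll1 protein has a CXXC domain that is known to bind unmethylated CpG dinucleotides. Promoters of 5 members with large changes in either direction, chosen after their values were seen, are therefore shown, each as the 250 bases before an annotated start, read 5′ to 3′ on the gene's strand from RefSeq's promoter table for GRCm38.p6. Capitals mark each CG. The Kcnj8 promoter is at chr6:142571615-142571864 (minus strand), that of Kcnmb4 at chr10:116473524-116473773 (minus strand), that of Kcna4 at chr2:107290339-107290588 (plus strand) and that of Kcnd2 at chr6:21215096-21215345 (plus strand). Cacnb2 had 2 of its promoters chosen, at chr2:14604056-14604305 and chr2:14823842-14824091 (both plus strand).
Kcnj8: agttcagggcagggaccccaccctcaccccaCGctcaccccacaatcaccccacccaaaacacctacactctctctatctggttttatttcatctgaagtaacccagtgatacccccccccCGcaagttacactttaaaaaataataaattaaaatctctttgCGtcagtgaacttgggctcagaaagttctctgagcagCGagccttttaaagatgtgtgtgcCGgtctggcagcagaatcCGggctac
Kcnmb4: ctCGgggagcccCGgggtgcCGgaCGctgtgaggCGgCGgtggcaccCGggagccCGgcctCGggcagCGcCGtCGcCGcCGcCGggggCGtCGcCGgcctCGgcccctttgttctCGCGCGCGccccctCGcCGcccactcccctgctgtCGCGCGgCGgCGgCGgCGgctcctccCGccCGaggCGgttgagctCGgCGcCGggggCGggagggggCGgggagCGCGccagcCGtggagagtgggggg
Kcna4: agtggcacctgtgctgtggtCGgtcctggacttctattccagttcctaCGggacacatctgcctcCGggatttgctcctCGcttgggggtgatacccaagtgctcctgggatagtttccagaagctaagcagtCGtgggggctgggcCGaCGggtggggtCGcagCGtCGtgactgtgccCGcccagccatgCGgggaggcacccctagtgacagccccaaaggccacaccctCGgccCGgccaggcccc
Kcnd2: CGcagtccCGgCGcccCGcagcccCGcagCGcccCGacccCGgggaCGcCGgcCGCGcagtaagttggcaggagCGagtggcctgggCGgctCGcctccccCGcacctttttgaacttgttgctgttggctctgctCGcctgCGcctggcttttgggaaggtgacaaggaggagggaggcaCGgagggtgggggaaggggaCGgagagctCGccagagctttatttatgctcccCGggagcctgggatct
Cacnb2, promoter 1: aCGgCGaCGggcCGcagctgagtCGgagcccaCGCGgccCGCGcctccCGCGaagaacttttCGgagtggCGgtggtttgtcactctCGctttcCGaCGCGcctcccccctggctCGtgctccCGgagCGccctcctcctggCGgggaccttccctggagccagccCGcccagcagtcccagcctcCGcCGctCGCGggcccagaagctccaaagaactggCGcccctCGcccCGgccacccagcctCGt
Cacnb2, promoter 2: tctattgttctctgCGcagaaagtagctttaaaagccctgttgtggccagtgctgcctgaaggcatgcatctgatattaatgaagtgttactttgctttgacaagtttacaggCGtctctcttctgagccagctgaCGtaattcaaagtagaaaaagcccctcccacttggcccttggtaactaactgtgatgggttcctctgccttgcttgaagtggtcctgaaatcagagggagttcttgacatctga

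The promoters of the 2 members with the largest falls among those tested were unlike each other: Kcnmb4 had 43 CG and Kcnj8 had 6. Kcna4, which was also lower, had 14, and Kcnd2, which was higher, had 22. Cacnb2, higher as well, had 30 in 1 promoter and 3 in the other. Kcnn1, which had the largest rise among the tested members, is not shown and had 10 and 8 in its promoters. The table held 126 promoters of 91 members, with a median of 8 CG in 250 bases, against 6 over all 32851 promoters and 14 over those of the genes tested. Members called higher, called lower, not called and not tested had medians of 9, 8.5, 9.5 and 7, and the medians of the higher and the lower members were close to each other. A search of both strands for TATAAA, held by 12.4% of all promoters, found none in the 6 windows. The letters GGGCGG, which overlap CG and occur in 32.7% of all promoters, were found 4 times in the Kcnmb4 window, once each in those of Kcna4 and Kcnd2 and in promoter 1 of Cacnb2, and in neither of the remaining windows. These matches describe letters only, and binding or methylation at these promoters was not measured.

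Channel genes were often blank. Of the 209 channel features, 69 (33.0%) held a value on all 4 arrays, against 71.4% of all singly named features, and 39 (18.7%) held none, against 7.96%. The sodium channel features were the emptiest class, with 9 of 18 blank on every array and 4 (22.2%) complete. Potassium channel features were complete in 42 of 142 cases (29.6%) and calcium channel features in 23 of 49 (46.9%). Blanks made up 43.5%, 43.5%, 53.1% and 31.1% of the channel features on arrays 1 to 4, and 19.7%, 19.8%, 23.5% and 12.6% of all singly named ones, so array 3 was the emptiest and array 4 the fullest in both. What a blank stands for is not given in the sources used here. A blank therefore says nothing about whether a channel is expressed.

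**Figure D1:**
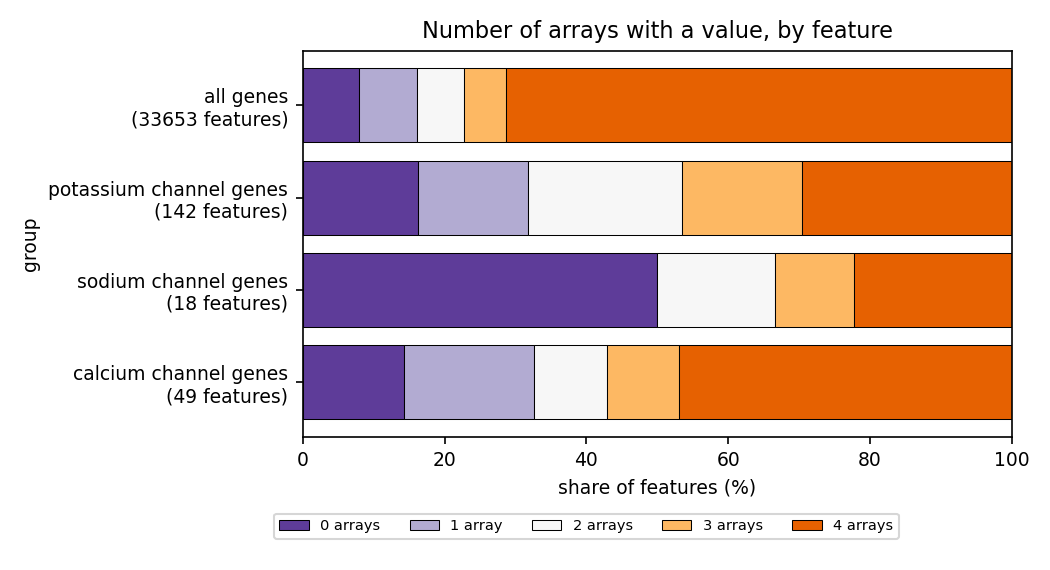
Share of features (percent) by the number of arrays, 0 to 4, on which they held a value, for potassium, sodium and calcium channel features and for all singly named features. Complete features made up 29.6%, 22.2% and 46.9% of the 3 channel classes against 71.4% of all.

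With a value required on all 4 arrays, 55 of the 119 members could be tested, against 14222 of all 19087 genes. Features of a gene were averaged, and genotype was tested with limma beside a dye term. Among the 55 members, 17 were higher in Mll1-/- cells (30.9%) and 15 were lower (27.3%) at an adjusted p under 0.05, 32 (58.2%) in all. Over all genes tested the shares were 29.1% higher and 30.1% lower, 59.2% in all, so the members' shares lay near the background in this fit over 4 arrays. With 1 array left out, 45.5% to 50.9% of the members were called, and 38.4% to 41.1% of all genes. A fit to 3 arrays has fewer residual degrees of freedom, whichever array is left out. A call lost that way, here and below, therefore does not by itself mark the array left out as the reason. Without array 1, 2, 3 or 4, the members called higher were 21.8%, 25.5%, 23.6% and 29.1%, beside 18.7%, 17.8%, 20.1% and 20.0% of all genes. The members called lower were 29.1%, 20.0%, 23.6% and 21.8%, beside 20.8%, 20.6%, 20.2% and 21.1% of all genes. The difference between members and all genes was not tested. At least 2-fold and past the threshold were 6 members higher and 7 lower, 23.6% of those tested. Over all genes the like share was 14.4%, 6.3% higher and 8.06% lower, and this difference was not tested either. The members' values were also more spread: the median absolute log2 ratio was 0.49 against 0.34, and the median SD over arrays 0.33 against 0.17. All 4 arrays had the same sign in 35 members (63.6%), near the 66.5% of all genes.

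Potassium channel genes made up 36 of the 55 members tested, with 13 higher and 10 lower. The share called, 63.9%, was near the 59.2% of all genes, and the difference was not tested. The median log2 ratio of the class was 0.15, and it was 0.39, 0.45, 0.11 and 0.04 on arrays 1 to 4. Calcium channel genes had 4 higher and 5 lower among 16 tested (56.2% called), with a median of 0.02 that lay between -0.10 and 0.09 on single arrays. Of the sodium channel genes 3 could be tested, and limma called 0 of them, with 0 at an unadjusted p under 0.05 and a median of 0.03. The median over all genes tested was 0.00. Near 0, the class medians took either sign: that of the calcium channel genes was -0.14 without array 2 and 0.13 without array 4, and that of the sodium channel genes -0.09 without array 1 and 0.15 without array 3. The calcium channel genes called higher fell to 2 without array 3, and those called lower to 3 without array 2 or array 4. No test of the difference between the classes was made, and the sodium class is too thinly measured to set beside the others. Pore genes of the voltage-gated families alone had 4 higher and 8 lower of 23 tested (52.2% called), and the remaining members 13 higher and 7 lower of 32 (62.5%). The counts by role below rest on few genes each and cannot be set against the share of all genes.

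**Figure D2:**
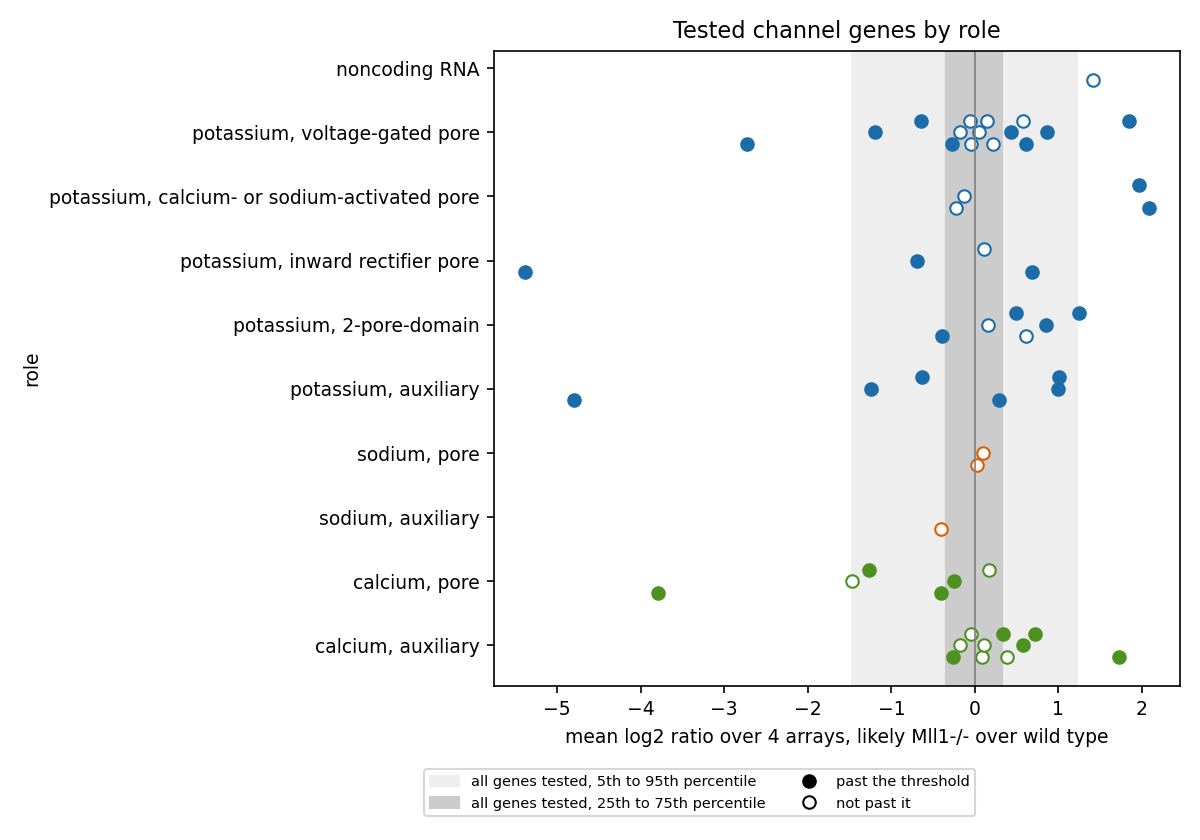
Mean log2 ratio over 4 arrays (likely Mll1-/- over wt, horizontal axis) of each of the 55 tested channel genes by role, filled where past the threshold, in blue for potassium, orange for sodium and green for calcium, with grey bands for the 5th to 95th and the 25th to 75th percentiles of all genes tested. Calcium channel pore genes lie between -3.79 and 0.17, and calcium channel auxiliary genes between -0.26 and 1.73.

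Among the voltage-gated potassium channel pores, 15 of 34 genes were tested, 4 were higher and 4 lower. Kcna4, an alpha subunit of a rapidly inactivating channel, showed the largest fall, with log2 ratios of -2.40, -2.60, -3.34 and -2.58 on arrays 1 to 4. The mean was -2.73 ± 0.42 (SD, n = 4), 6.63-fold lower (adjusted p = 0.00251, limma). Array 3 was the lowest and the other arrays lay close together.

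The Kcnd genes encode alpha subunits of channels that carry transient A-type currents, and their tested members did not move one way. Kcnd2 was higher, at 2.83, 1.16, 1.35 and 2.05 on arrays 1 to 4, a mean of 1.85 ± 0.76 (3.60-fold, adjusted p = 0.019, limma). The arrays ranged widely, with array 1 highest, and the call was lost without array 2 (adjusted p = 0.0501) and without array 4 (0.0705). A second Kcnd2 feature had a value on array 4 alone, 0.23. Kcnd1 was lower, at -0.71, -1.08, -1.34 and -1.63, a mean of -1.19 ± 0.39 (2.28-fold, adjusted p = 0.0102). All 4 arrays were below 0, array 1 least. Kcnd3 was not called, at -0.06 ± 0.41.

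Smaller changes past the threshold were seen in Kcna6 (0.86), Kcnh5 (0.61) and Kcnh2 (0.43), the last encoding the channel known as hERG, which repolarises the heart. A second Kcna6 feature had a value on array 1 alone, -1.85, where the feature used was at 1.01. Kcna7 was lower at -0.65 and Kcnc4 at -0.27. Kcnc4 was called although array 3 was above 0, at 0.14, and its call was lost when the fit had no dye term. The Kcnh2 and Kcnh5 calls were lost without array 1 (adjusted p = 0.0501 and 0.0521, limma), and that of Kcnc4 without any 1 of the 4 arrays (0.0535 to 0.167). Kcna2, a subunit of axonal channels, had a mean near 0 that no array was near: its ratios were -2.91, 4.00, -1.52 and 0.62 (0.05 ± 3.01). The sign followed the dye, with both Cy5 arrays of the mutant negative. Kcng2, an electrically silent subunit, was also scattered, at 0.22 ± 1.44. Kcnq5 reached 0.58 with 1 sign on all arrays and missed the threshold (adjusted p = 0.0719), and Kcnh6, at -0.05, had with Kcna2 the smallest ratio among the uncalled genes of this group.

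Inward rectifiers pass potassium more easily into the cell than out of it and hold the resting potential. Kcnj8 encodes the pore of an ATP-sensitive potassium channel of vascular smooth muscle and pericytes, and it showed the largest change of any tested member. Its log2 ratios were -5.16, -6.24, -4.31 and -5.84 on arrays 1 to 4, a mean of -5.38 ± 0.84 (41.8-fold lower, adjusted p = 0.000932, limma). Arrays 2 and 4 were lower than arrays 1 and 3, which is the split by dye. A second Kcnj8 feature, not used in that mean, held values on 2 arrays only, -0.00 on array 1 and -1.50 on array 3, far from the first. Of the other 3 inward rectifiers tested, Kcnj14 was higher at 0.68, Kcnj4 lower at -0.69, and Kcnj9 was not called (0.11 ± 0.61). The Kcnj14 call was lost without array 3 (adjusted p = 0.0586) and that of Kcnj4 without array 2 (0.0552). The 3 complete Kcnj4 features ran from -0.95 to -0.29, and the one at -0.29 was not called by itself (adjusted p = 0.0526, limma). The Kcnj4 call was also lost when that feature stood for the gene (0.0616).

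Several inward rectifiers with blanks had large ratios that were left without a main test. Kcnj2, which encodes the classical strong rectifier of heart and skeletal muscle, was at -2.03, -2.36 and -3.13 on arrays 1, 3 and 4. Kcnj1, the channel of the kidney's thick limb and collecting duct, was at -4.92 and -3.64 on arrays 1 and 2. Kcnj15 was at -3.58 and -3.84 on arrays 1 and 3. Every value of these 3 genes lay more than 2-fold below 0. Kcnj10, an astrocyte channel, had -8.23 on one array and -0.03 on another, so its 2 values share a sign and little else.

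The 2-pore-domain channels set background potassium conductance, and 6 of 10 were tested. Kcnk12 was higher, at 1.71, 1.26, 0.89 and 1.15, a mean of 1.25 ± 0.34 (2.39-fold, adjusted p = 0.0089, limma), and no array lay below 0. Kcnk2, a mechanically gated channel, was higher at 0.85, and array 4 stood below the other arrays. Kcnk3, an acid-sensitive channel, was called higher at 0.49, while its features differed, at 0.80 (adjusted p = 0.00208) and 0.18 (0.439). Its call was also lost without array 1 or array 3 (adjusted p = 0.0692 and 0.0625). Kcnk13 was lower at -0.39. Kcnk4 was not called at 0.16 (adjusted p = 0.082), with arrays 1 and 3 at 0.64 and 0.81 and arrays 2 and 4 at -0.48 and -0.35, again the split by dye.

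Channels opened by intracellular ions gave 2 rises among 4 tested genes. Kcnn1, a small-conductance channel opened by calcium through calmodulin, was at 2.17, 2.71, 1.70 and 1.72, a mean of 2.08 ± 0.48 (4.21-fold higher, adjusted p = 0.0055, limma), the largest rise among the tested members. Its arrays were all well above 0. Kcnt1, opened by sodium, averaged 1.59, 1.93, 2.75 and 1.62 over its features, a mean of 1.97 ± 0.54 (3.92-fold, adjusted p = 0.00731). That average hides a split between features: one was at 3.44, 3.73, 5.28 and 2.92 (mean 3.84, adjusted p = 0.00504) and the other at -0.26, 0.13, 0.22 and 0.31 (mean 0.10, 0.458). Another Kcnt1 feature, blank on array 1, was at 1.49, 3.06 and 1.43. Kcnn4 (-0.13 ± 1.01) and Kcnt2 (-0.23 ± 0.63) were not called. Kcnma1, the large-conductance channel opened by calcium and voltage, had values on 2 arrays only, -0.27 and -0.26.

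Auxiliary subunits of potassium channels were called in all 6 tested cases, 3 higher and 3 lower, beside 59.2% of all genes called in either direction, and 6 genes are too few to set against that share. Kcnmb4, the brain-enriched beta subunit of the large-conductance channel, fell to ratios of -4.72, -5.14, -4.58 and -4.74, a mean of -4.80 ± 0.24 (27.8-fold lower, adjusted p = 0.000445, limma). The 4 arrays lay close together, and none of 13 other settings lost the call. Another beta subunit, Kcnmb2, was higher at 0.29, and Kcnmb1, that of smooth muscle, was at 0.37 to 1.68 on its 3 arrays with a value. The Kcnmb2 call was lost without any 1 array (adjusted p from 0.0627 to 0.143). The opposite-strand RNAs of the Kcnmb4 locus, both noncoding, were on the same side as Kcnmb4: Kcnmb4os2 lay between -3.94 and -1.87 and Kcnmb4os1 between -2.32 and -0.52 on 3 arrays each.

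The other auxiliary calls concern proteins that bind voltage-gated potassium channels from inside the cell. Kcnip3, a calcium-binding partner of the Kcnd subunits, was at -1.28, -1.13, -1.52 and -1.05, a mean of -1.24 ± 0.21 (2.37-fold lower, adjusted p = 0.00143, limma). Both of its features were called, at -1.70 and -0.78. The Kcnab genes encode beta subunits of the Kcna channels, and they moved in both directions. Kcnab1 was at 1.22, 1.24, 0.63 and 0.96, a mean of 1.01 ± 0.29 (2.01-fold higher, adjusted p = 0.00884), Kcnab3 was higher at 0.99, and Kcnab2 was lower at -0.63. The incomplete features of Kcnab1 were scattered, from -1.55 to 2.61.

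**Figure D3:**
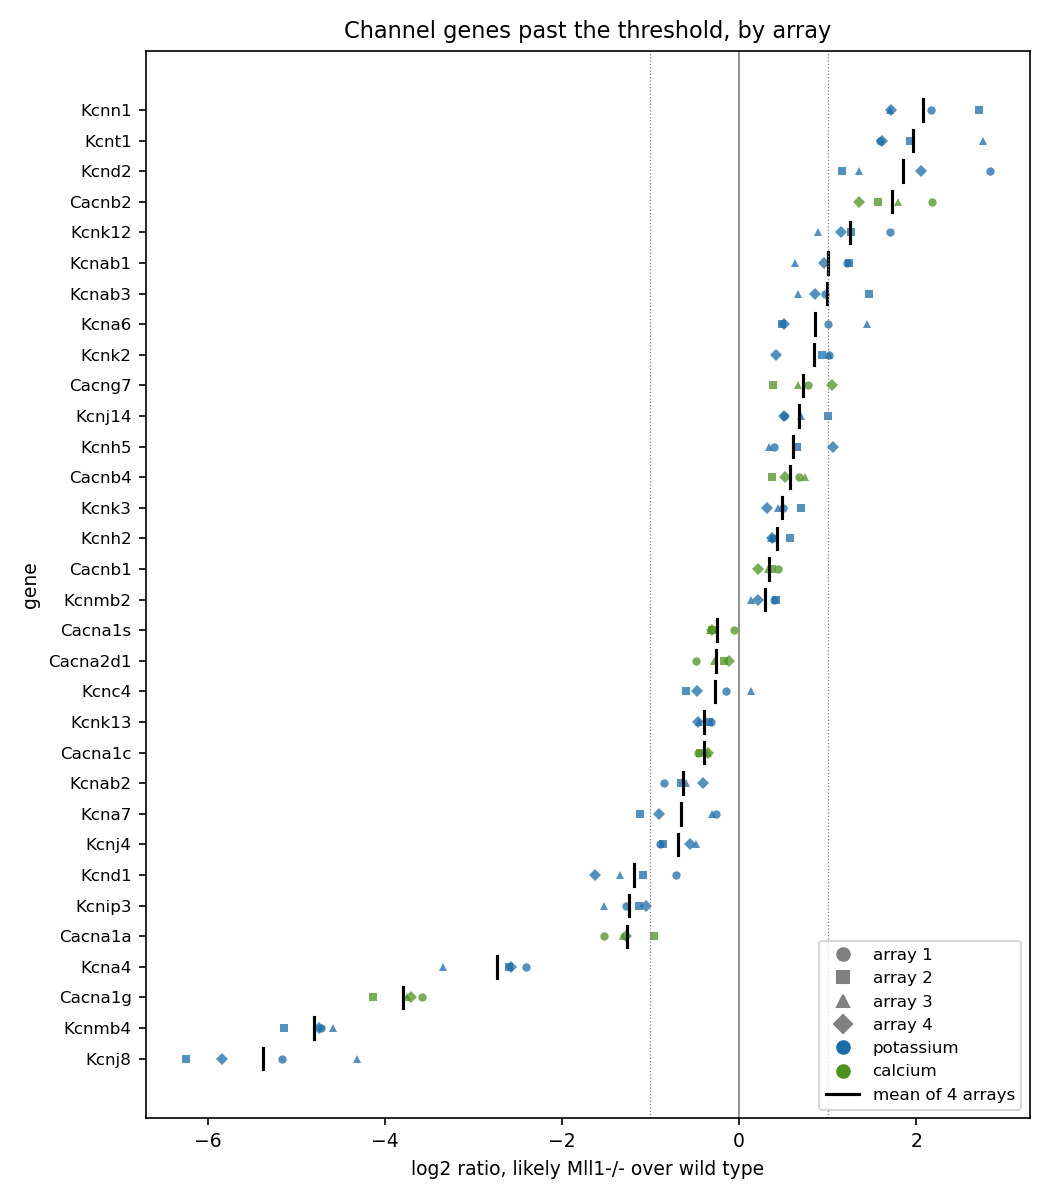
Log2 ratio (likely Mll1-/- over wt, horizontal axis) on each of the 4 arrays, by marker shape, for the 32 potassium (blue) and calcium (green) channel genes past the threshold, with the mean as a black bar and dotted lines at -1 and 1, a change of 2-fold. Kcnj8, Kcnmb4 and Cacna1g lie between -6.24 and -3.58 on every array, below all other genes, and Kcnc4 has arrays on both sides of 0.

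Voltage-gated calcium channels were tested for 6 of 10 pore genes, of which 0 were higher and 4 lower at the threshold (limma). In either direction, 6 had an unadjusted p under 0.05. The share called was 66.7% beside 59.2% of all genes, and 6 genes are too few to set against that share. The median log2 ratio of these pore genes was -0.84. Cacna1g, the pore of a low-threshold T-type channel, was at -3.58, -4.13, -3.75 and -3.70, a mean of -3.79 ± 0.24 (13.8-fold lower, adjusted p = 0.000613). The arrays were close together, and both of its features were low, at -4.32 and -3.27. A related T-type gene, Cacna1h, was on the other side of 0 and not called (0.17 ± 0.12, adjusted p = 0.0516). Another Cacna1h feature, not used in that mean, was far higher, at 1.29 on array 2 and 3.16 on array 4, and blank on the other arrays.

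Cacna1a, the pore of the P/Q-type channel of nerve endings, averaged -1.53, -0.96, -1.31 and -1.28, a mean of -1.27 ± 0.24 (2.41-fold lower, adjusted p = 0.0024, limma). The features again differed: one was at -2.56, -2.01, -2.12 and -2.23 and was called, and the other was at -0.51, 0.09, -0.50 and -0.33 and was not (-0.31, adjusted p = 0.0542). The L-type pore genes Cacna1c, of heart and smooth muscle, and Cacna1s, of skeletal muscle, were lower by less, at -0.40 ± 0.06 and -0.25 ± 0.13. The Cacna1s call was lost without any 1 array (adjusted p from 0.0506 to 0.137). A second Cacna1s feature, not used in its mean, was above 0, at 0.16 on array 1 and 0.13 on array 2. Cacna1b, the N-type pore, was below 0 on all arrays and missed the threshold (-1.47 ± 0.93, adjusted p = 0.0601). Its ratios ran from -2.71 on array 1 to -0.44 on array 3.

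Calcium channel auxiliary genes had 4 higher and 1 lower of 10 tested, with a median of 0.22. The beta subunits bind the pore inside the cell, and the 3 of them tested were all higher. Cacnb2 was at 2.18, 1.57, 1.80 and 1.36, a mean of 1.73 ± 0.35 (3.31-fold, adjusted p = 0.00164, limma), Cacnb4 was at 0.58 and Cacnb1 at 0.34. The Cacnb1 call was lost without array 1, 2 or 3 (adjusted p from 0.0531 to 0.0693). Both complete features of Cacnb2 were called, at 2.71 and 0.75, and another, blank on array 3, was at 1.88, 2.39 and -0.26.

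Among the gamma subunit genes, some of which are better known as partners of glutamate receptors, Cacng7 was higher at 0.72. Cacng2, Cacng6 and Cacng8 were not called, at 0.09, 0.39 and -0.18. Of the alpha2delta genes, which encode extracellular subunits, Cacna2d1 was lower at -0.26, and Cacna2d2 (0.11) and Cacna2d3 (-0.05) were not called. The Cacng7 call was lost without array 1 or array 3 (adjusted p = 0.0787 and 0.0684, limma), and that of Cacna2d1 without any 1 array (0.0526 to 0.118).

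Sodium channels carry the upstroke of the action potential. Scn2a, a brain channel, was at 0.10, 0.13, -0.39 and 0.30 (0.03 ± 0.29), and Scn10a, a channel of sensory neurons, at 0.35, 0.06, 0.12 and -0.11 (0.10 ± 0.19). The beta subunit gene Scn3b was at -0.48, -1.05, 0.22 and -0.30 (-0.40 ± 0.53, adjusted p = 0.176, limma). Each of the 3 had arrays on both sides of 0. Scn1a, blank on 1 array, was above 0 on the other arrays, between 0.32 and 1.90, Scn8a was at 0.41 and 0.56 on 2 arrays, and Scn3a ranged from -0.12 to 2.24. Scn7a, Scn9a, Scn11a and Scn2b had no value on any array.

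Kcnq1ot1, the long noncoding RNA transcribed across Kcnq1 that silences neighbouring imprinted genes, had a mean of 1.42 ± 1.13 and was not called (adjusted p = 0.0985, limma). Its ratios were 0.27 and 0.62 on arrays 1 and 2 and 2.31 and 2.47 on arrays 3 and 4. The split was by array pair and not by dye, and both complete features showed it, at 0.34, 0.49, 2.05 and 2.07 and at 0.21, 0.76, 2.58 and 2.87. Kcnq1, the host gene, whose protein is a cardiac and epithelial channel, was at 0.15 ± 0.29 and not called.

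For 13 genes more than 1 feature was complete, and in 7 of them the features' means were over 0.5 apart on the log2 scale. The largest gap, 3.74, was that of Kcnt1. In the other 6 the gap was at most 0.36. Every feature was called in 5 of the 13 genes, some in 5 and none in 3. Of all complete features 59.6% were called singly, a share per feature that these counts per gene cannot be set against.

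**Figure D4:**
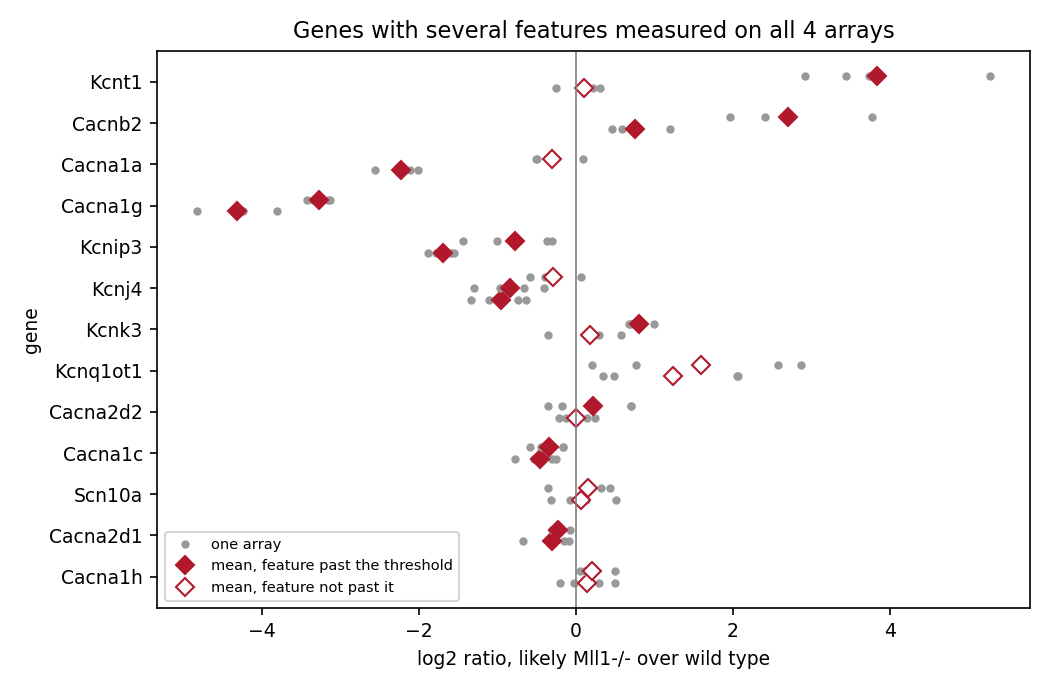
Log2 ratio (likely Mll1-/- over wt, horizontal axis) of each complete feature of the 13 channel genes with more than 1, a row per feature, with grey points for single arrays and a diamond for the mean, filled where the feature alone passed the threshold. The features of Kcnt1, at 3.84 and 0.10, and of Cacna1a, at -2.23 and -0.31, lie far apart, and those of Cacna1g are both low, at -4.32 and -3.27.

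The 64 members without a complete feature divide into 13 with no value, 8 with a value on at most 1 array, 22 on 2 and 21 on 3. Those with no value, besides the 4 sodium channel genes above, were Cacna1f, Cacng1, Kcna1, Kcnh7, Kcnip2, Kcnk1, Kcnk6, Kcns1 and Kcnv2. Values on single arrays were all that Cacna1e, Cacna2d4, Cacng3, Kcng4, Kcnh8, Kcnj3, Kcnj5 and Kcnv1 had. Of the 43 with more, 20 kept 1 sign, 8 higher and 12 lower, and 23 had both signs.

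Kcnf1, an electrically silent potassium channel subunit, had the highest of these values, 4.92, 6.03 and 4.55 on arrays 2 to 4. With Kcnj1, Kcnj2, Kcnj15 and Kcnmb4os2 it made up the 5 genes with every value past 2-fold. Kcnc2 had 3 features with 2 values each, all 6 values negative, from -4.27 to -0.25, and Kcna3 was at 0.91 and 2.73. Features could also oppose each other: 1 of Kcnk5 was at 4.91 and 4.10, and the other at -1.05, 1.51 and -1.46. The many features of Kcnj6 and Kcnn2 spread from -3.10 to 2.05 and from -2.94 to 2.55.

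When a value on 3 arrays sufficed, 21 more members were tested, and limma called 3 higher and 2 lower. Over all 15283 genes tested that way, 25.8% were higher and 27.1% lower. Of those genes 14222 had a complete feature, which the 21 members lack, so the shares are not alike. Higher were Kcnf1 (5.38, adjusted p = 0.00311), Kcnn3 (0.82, 0.0136), a relative of Kcnn1, and Scn1a (1.03, 0.0197). Lower were Kcnj2 (-2.66, adjusted p = 0.00575) and Kcnu1 (-0.47, 0.0234), the sperm potassium channel, which was at 0.00, -0.95 and 0.03 on arrays 1 to 3. These 5 genes lack 1 array each, so their dye term rests on a single array of one orientation, and the fitted ratio, which weights the orientations equally, is not the plain mean.

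Other genes of ion transport and its control, 119 on the array in 7 lists, had 21 higher and 23 lower of 83 tested, with a median of -0.01. The share called, 53.0%, was below the 59.2% of all genes, and the lists below are too short to be read against it. The number higher fell to between 11 and 13 when any 1 array was left out. Calls among TRP cation channels were mostly falls, 1 higher and 5 lower of 11 tested, with Trpm2 at -2.38, Trpv3 at -2.21 and Trpm6 at -1.54, and Trpv2 higher at 1.62. Chloride channel genes had 8 higher and 4 lower of 16, with Lrrc8b (0.89), Clcn3 (0.82) and Ano1 (0.55) highest among the called and Clca1 (-0.89), Clcn6 (-0.63) and Best1 (-0.51) lowest. Both calls among 6 cyclic-nucleotide and hyperpolarisation-gated channels were falls, Cnga3 at -2.15 and Cngb1 at -1.52. Among the calls named here, those of Trpv3 and Clcn3 were lost without array 2 or array 4 (adjusted p = 0.0777 to 0.0851, limma), that of Ano1 without array 1, 3 or 4 (0.0566 to 0.0956), that of Clca1 without array 1 or 3 (0.0865 to 0.115) and that of Best1 without array 1, 2 or 4 (0.051 to 0.0704).

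Ion pumps and exchangers had 4 higher and 5 lower of 16, led by the sodium pump subunit Atp1b1 (1.04) and by the cotransporter Slc12a1 (-2.14), the sodium-calcium exchanger Slc8a3 (-1.94) and the calcium pump Atp2b1 (-1.10). Other cation channels had 2 higher and 3 lower of 9, with Asic1 at 1.10 and the epithelial sodium channel subunit Scnn1a at -2.10. In the calcium release list Orai1 (0.36) was higher and Orai3 (-0.20) lower of 7 tested. The Orai1 call was lost without array 1, 2 or 3 (adjusted p from 0.0503 to 0.0548) and that of Orai3 without any 1 array (0.0891 to 0.178). Proteins that regulate channels had 5 higher and 3 lower of 18. They included Rem2, a small GTPase that inhibits calcium channels (0.76), Ank3, the ankyrin that anchors sodium channels (-1.26), and Sgk1, a kinase that regulates ion transport (-0.95).

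Markers of several cell types were also looked up. Over all genes tested 59.2% were called in either direction, and each marker list is too short to be read against that share. Of 6 smooth muscle markers tested, 5 were higher, among them Myl9 (4.80), Cnn1 (4.29) and Acta2 (2.38), and the list's median ran from 3.03 to 3.26 over the arrays, while Myh11 was not called (0.26 ± 0.38). Of 10 neuron markers on the array 5 could be tested, and 3 were higher, with Map2 at 6.53, Tubb3 at 0.74 and Syn1 at 0.32. Rbfox3 (-0.09 ± 0.22) and Syt1 (-0.05 ± 1.40) were not called, and the array medians of the neuron list ran from 0.25 to 0.77. Striated muscle markers had 3 higher and 3 lower of 8 (array medians from -0.15 to 0.13), fibroblast markers 5 higher and 4 lower of 11 (from 0.12 to 0.53), and glia and Schwann cell markers 1 higher of 4 (from -0.37 to 0.12). Endothelial markers had 1 higher and 1 lower of 3 (from -0.50 to 0.67), macrophage markers 1 higher of 2 (from 0.28 to 2.44), and epithelial markers 0 called of 3 by limma, with 0 at an unadjusted p under 0.05 (from -0.18 to 0.65). Their part in the channel genes' changes was not tested. The dye had an unadjusted p under 0.05 in 9 of the 55 members, Kcnj8 among them, beside 14.8% of all genes, and 0 after adjustment (limma).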

How the data were processed

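Total RNA of both lines was compared on 4 arrays with the dyes swapped on 2, and scanned data were extracted with Agilent Feature Extraction 10.1.1, per the submitters' processing notes. The deposited values are 1 log ratio per feature and array, made by the authors and read as log2. No source used here gives the base, direction, background correction, normalization or meaning of blanks, and base 2 was inferred from the range. Array medians over all features were -0.01, 0.03, -0.02 and 0.02, and arrays correlated at r = 0.72 to 0.85 over 29054 features, so values already ran one way. The highest r were those of arrays with the same dye order, 0.83 for arrays 1 and 3 and 0.85 for arrays 2 and 4. Pairs with opposite dye order lay between 0.72 and 0.78. The scale was kept. Features with 1 gene symbol and a value on all 4 arrays were averaged per gene (24012 features, 14222 genes).

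The genotype term was fitted together with a dye term (limma 3.58.1, R 4.3.3, lmFit and eBayes, 2 residual degrees of freedom), with Benjamini-Hochberg adjustment over all genes tested and a threshold of 0.05. Errors are SDs over arrays and include any dye difference, which the fit takes out before its p-values. Folds are 2 to the power of the absolute log2 ratio, and the fit was tested on simulated data. Members and lists were chosen with earlier results of these data known. Array values are given for members past the threshold with an absolute log2 ratio of at least 1 and 1 sign on all arrays. Smaller calls are given by ratio, uncalled genes by the smallest ratio of each role and others chosen after their values were seen, blank-bearing genes as values, and up to 3 genes each way per other list. Alternatives were no dye term, centred or scaled arrays, a robust prior, updated symbols, other feature rules, 3 arrays sufficing, arrays averaged or blocked in pairs, each array left out and, after seeing the data, single features and the noncoding RNAs left out.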

Additional observations from a re-analysis of the deposited data

Results flagged for a closer look

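For 58 members and class medians, the 4 arrays were examined for 1 that stood apart by Dixon's criterion at the 95% level, and 3 genes showed one. Chance marks about 1 in 20 groups. Cacna1s was at -0.06 on array 1, while its other arrays lay between -0.33 and -0.31. Kcnh2 was at 0.58 on array 2, above 0.36 to 0.38 on the others. Kcnk2 was at 0.42 on array 4, below 0.94 to 1.02 on the others. The 3 genes stood apart on 3 different arrays, and all 4 arrays of each had 1 sign.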

How the results depend on the processing

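Channel gene counts and class medians were recomputed without the dye term, with arrays centred or scaled, with a robust prior, with other feature rules, with arrays averaged or blocked in pairs and with each array left out. Counts at or near 0 have little room to move. With arrays 1 and 2 and arrays 3 and 4 averaged, 2690 genes of all were higher, 3 calcium channel genes were lower and 11 other channel and transporter genes were higher. With arrays 1 and 4 and arrays 2 and 3 averaged, 1 sodium channel gene was lower. When 3 arrays sufficed, 1 sodium channel gene was higher and the calcium median was -0.12. These averages leave 2 values, and 3 arrays add genes, by construction.

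Leaving out 1 array gave 2532 to 2860 genes higher and 2879 to 3005 lower over all genes, the fewest higher without array 2 and next 2665 without array 1. It gave 12 to 16 channel genes higher and 11 to 16 lower, 9 to 12 potassium channel genes higher and 8 to 12 lower, 0 sodium channel genes either way, 2 to 4 calcium channel genes higher and 3 to 4 lower. For the other channel and transporter genes it gave 11 to 13 higher and 19 to 21 lower. Class medians ran from 0.13 to 0.29 for potassium, from -0.09 to 0.15 for sodium and from -0.14 to 0.13 for calcium channel genes.

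Of the 32 members called, 18 were called under all 13 settings that refit every gene. Another 14 were lost under at least 1, 12 of them when 1 array was left out, and 0 of the 32 changed direction. Of the 23 members not called, 11 were called under at least 1 setting, Cacna1b, Kcnq5 and Kcnq1ot1 among them. The like shares over all genes are not given here, so these counts cannot be read as a trait of the members. Among the 13 members at least 2-fold, Kcnd2 was lost with arrays 1 and 4 and arrays 2 and 3 averaged (adjusted p = 0.0635, limma) and without array 2 or 4, and Kcnt1 (0.10) and Cacna1a (-0.31) were lost when the least-changed feature stood for the gene. The average of Cacnb2 then fell to 0.75 and that of Kcnip3 to -0.78, both still called. Kcnq1ot1 was called without the dye term (0.048), with arrays 1 and 2 and arrays 3 and 4 as a random block (0.0472, at a block correlation of -0.0367) and with arrays 1 and 4 and arrays 2 and 3 averaged (0.00551), an average that joins its low and high arrays. With arrays 1 and 2 and arrays 3 and 4 averaged, the pairs by which it splits, it was not called (0.139). No paired analysis was possible because there is 1 group and so no replicate number shared between groups. Each ratio already sets both genotypes side by side on 1 array, and the pairs of arrays averaged or blocked above are not pairs the labels give. Signal over background was not used here, so whether dim probes carry the widest ratios was not assessed.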

Other observations

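The genes beside the 13 most changed members, in RefSeq gene order, were looked up after the values had been seen. Of 26 flanking genes 17 were tested and 11 called, 7 in the member's direction and 4 in the other, and 2 were called and at least 2-fold. The share called, 64.7% of those tested, was near the 59.2% of all genes. Ldhb, a lactate dehydrogenase gene next to Kcnj8, was at -4.56, -5.02, -4.28 and -4.60 on arrays 1 to 4, a mean of -4.61 ± 0.30 (adjusted p = 0.000529, limma). Abcc9, on the other side of Kcnj8, encodes the sulfonylurea receptor that assembles with the Kcnj8 pore, and it held -3.10 on array 1, -8.80 on array 3 and no value on arrays 2 and 4. Every value of these 3 neighbouring genes was below 0, apart from the second Kcnj8 feature, which was at -0.00 on array 1.

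Abcc3, a transporter gene next to Cacna1g, was at -4.01 ± 0.06 on its complete feature (adjusted p = 0.000426, limma). A second Abcc3 feature held values on 2 arrays only, -0.27 on array 3 and 0.36 on array 4, far from the first. Spata20, on the other side, was lower by less, at -0.83. Kcnmb4 had no such neighbour: Cnot2 was at -0.37, and Ptprb held 4.13 and 1.92 on arrays 2 and 4. Cdkn1c, an imprinted cell cycle inhibitor gene in the domain that Kcnq1ot1 is known to silence, was at 1.82, 4.14, 3.21 and 0.95, a mean of 2.53 ± 1.42, and its order over the arrays differed from that of Kcnq1ot1. These values describe the neighbours and no test of the neighbourhood was made.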
